A study of Mus musculus with 4 samples.

Results

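The genes of oxidative phosphorylation were taken from the single-cell table by symbol, as every row that begins with mt-, Nduf, Uqcr, Sdh, Atp5, Cox4, Cox5, Cox6, Cox7 or Cox8. The rule found 106 of 16600 genes, of which 93 are encoded in the nucleus and 13 in the mitochondrial genome. It takes in assembly factors of complex I and complex II and misses some parts of the chain that carry other symbols. The cells were CD24+ CD45- cells sorted from the cortex of C57BL/6J fetuses at E18.5, 2 of them wild type (Setd5+/+) and 2 heterozygous (Setd5+/-) for the Setd5 GFP allele, which the study uses as a heterozygous knockout of Setd5, a gene for a putative histone methyltransferase. Each fetus gave 1 droplet library, and the prefixes of the cell names, WT3, WT6, Het5 and Het9, give the genotype. The data address how the genes of the respiratory chain are used across the cell types of the late fetal cortex and whether loss of 1 Setd5 copy goes with a different level.

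Oxidative phosphorylation moves electrons from NADH and succinate to oxygen through complexes I, II, III and IV of the inner mitochondrial membrane and uses the proton gradient to make ATP at ATP synthase, also called complex V. Complex II is encoded wholly in the nucleus, while the other complexes join nuclear subunits with subunits made inside the mitochondrion, so that 2 genomes have to be expressed together. Radial glia are the stem cells of the fetal cortex, intermediate progenitors are their dividing daughters, and the excitatory neurons come from both. Interneurons arise outside the cortex, in the ganglionic eminences, and migrate into it. Dividing neural progenitors are known to depend strongly on glycolysis, and neurons on respiration.

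The promoters of nuclear respiratory genes are known for sites of NRF-1 and of ETS family factors such as GABP, so promoters of genes that moved between cell types are shown first. RefSeq promoter windows on GRCm38.p6, from 250 bases before to 50 bases after the annotated start, were matched by symbol for 75 of the 93 nuclear genes, in 80 windows. The NRF-1 core CGCATGCG occurred in 11 of the 80 windows (13.8%), against 1.87% of all 32851 windows. The ETS motif CCGGAAG, counted on both strands like the others, occurred in 20 windows (25%), against 8.86%, and AAGATGGCG, a YY1 motif, in 7 windows (8.75%), against 1.40%. None of the 3 motifs was found in 43 of the 75 genes, which says only that these letters are not in these windows. The promoters shown were chosen because they hold a motif, and no hit was found in the windows of other genes that moved, such as Ndufa12 and Sdhaf4. The 250 bases before the start are given 5′ to 3′ on the strand of the gene for 3 genes with a motif that were lower in a daughter cell type than in radial glia, with the motif in capitals.
Atp5g2: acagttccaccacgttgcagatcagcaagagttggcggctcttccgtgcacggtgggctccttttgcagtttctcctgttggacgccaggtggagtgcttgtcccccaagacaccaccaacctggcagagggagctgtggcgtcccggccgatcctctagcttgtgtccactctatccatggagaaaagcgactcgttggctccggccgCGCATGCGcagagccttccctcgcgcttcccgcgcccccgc
Sdhd: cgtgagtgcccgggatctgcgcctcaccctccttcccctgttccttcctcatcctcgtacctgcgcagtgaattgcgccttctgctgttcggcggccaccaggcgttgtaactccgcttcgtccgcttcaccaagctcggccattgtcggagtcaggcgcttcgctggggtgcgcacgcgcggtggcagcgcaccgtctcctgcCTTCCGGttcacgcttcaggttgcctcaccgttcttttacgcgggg
Ndufaf4: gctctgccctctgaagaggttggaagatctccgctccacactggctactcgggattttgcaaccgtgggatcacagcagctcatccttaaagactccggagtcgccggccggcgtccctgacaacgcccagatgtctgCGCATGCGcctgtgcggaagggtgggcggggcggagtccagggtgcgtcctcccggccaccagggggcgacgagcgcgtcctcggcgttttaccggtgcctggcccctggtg
The Atp5g2 window lies at chr15:102671048-102671297 on the minus strand and holds the NRF-1 core, as does the Ndufaf4 window at chr4:24897833-24898082 on the plus strand. The Sdhd window lies at chr9:50603850-50604099 on the minus strand and holds the ETS motif in its reverse complement. These are matches of letters, and binding was not measured. In the GENCODE M21 annotation of GRCm38, Atp5g2 itself spans 102662864 to 102672352 on chromosome 15, so that its window, placed before a RefSeq start, lies inside the gene as GENCODE draws it. The same annotation has Sdhd at 50596357 to 50603812 and Cox5a 57521274 to 57532426 on chromosome 9, Ndufaf4 24898083 to 24905001 on chromosome 4, Uqcrb 66900617 to 66905378 on chromosome 13 and Sdhaf4 23995939 to 24005656 on chromosome 1.

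Cells were assigned to types by gates, that is by the number of fixed marker genes with at least 1 UMI (unique molecular identifier, the tag that counts each captured molecule once). The gates held 346 radial glia, 1142 intermediate progenitors, 1974 excitatory neurons, 1005 interneurons, 92 striatal neurons, 28 Cajal-Retzius cells, 139 melanocytes, 95 immune cells, 32 erythroid cells, 11 vascular cells and 1201 cycling cells, while 135 cells passed several gates and 362 passed none. The cycling gate took precedence over the other neural gates, so it holds dividing cells of any neural type. No oxidative phosphorylation gene served as a gate marker. Of markers kept out of the gates, 6 of 7 were highest in the radial glia gate (Sox2 was not), 4 of 6 in the intermediate progenitor gate (not Insm1 and Neurod1), 4 of 7 in the excitatory neuron gate (not Bcl11b, Mef2c and Stmn2), 7 of 8 in the interneuron gate (not Slc32a1) and 5 of 5 in the cycling gate. Libraries held 1445 to 1954 cells and 8205330 to 11742956 UMIs, with medians of 5398 to 5997 UMIs per cell, and the median of the 5 large gates (radial glia, intermediate progenitors, excitatory neurons, interneurons and cycling cells) ran from 4168 in interneurons to 7192 in cycling cells. Setd5 itself, in counts per 10000 UMIs, was at 1.18 (WT3) and 1.07 (WT6) in the wild types and at 0.540 (Het5) and 0.586 (Het9) in the heterozygotes. In 277 cells the barcode occurred in more than 1 library, among them 136 of the 139 melanocytes and 75 of the 95 immune cells, but only 4 radial glia, 3 intermediate progenitors, 11 excitatory neurons, 8 interneurons and 14 cycling cells. The melanocyte and immune gates of the 4 libraries thus cannot be taken as separate cells and were not tested.

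In every library the 13 mitochondrial genes together outweighed the 93 nuclear ones in the neural gates. Over all cells the nuclear genes summed to 282 ± 6.56 and the mitochondrial genes to 352 ± 5.77 counts per 10000 UMIs (SD, n = 4 libraries). The deposited table stops at 6% mitochondrial UMIs, and the highest cell of each library lay between 5.95% and 5.99%, so cells with more are missing and the mitochondrial sums are capped. The share of cells at 5% or more was 4.34% in radial glia, 2.71% in intermediate progenitors, 2.91% in cycling cells, 8.11% in excitatory neurons and 10.8% in interneurons, so the limit lies closer to the neurons than to the progenitors.

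Excitatory neurons had the lowest nuclear sum of the 5 large gates, in every library. It was 264 in WT3, 263 in WT6, 256 in Het5 and 251 in Het9, against 298, 301, 290 and 285 counts per 10000 in radial glia. The ranges of these gates did not overlap, and the ratio was 0.881, a log2 difference of -0.18 ± 0.011 (SD over 4 libraries). Interneurons had nuclear sums of 294, 280, 284 and 279, which were 9.90% above excitatory neurons, with the same direction in 4 of 4 libraries. Intermediate progenitors (293 ± 9.25) and cycling cells (295 ± 6.13) lay within the spread of radial glia (293 ± 7.39).

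The mitochondrial sum followed another order. Cycling cells were lowest of the 5 large gates, with 324 in WT3, 311 in WT6, 309 in Het5 and 299 in Het9, against 348, 359, 342 and 323 in radial glia. The gates overlapped between libraries, but within each library cycling cells were lower, with an average difference of -9.23%. Excitatory neurons had 366 ± 5.77, interneurons 363 ± 2.44 and intermediate progenitors 356 ± 9.86 counts per 10000 (SD, n = 4), which are neighbours whose spreads overlap. Among these 5 gates the ratio of mitochondrial to nuclear counts was lowest in cycling cells (1.05 ± 0.024), followed by radial glia (1.17 ± 0.024), intermediate progenitors (1.22 ± 0.030), interneurons (1.28 ± 0.035) and excitatory neurons (1.42 ± 0.016). The libraries of radial glia and intermediate progenitors overlapped in this ratio, as did those of intermediate progenitors and interneurons, while excitatory neurons lay above the other 4 gates without overlap. The sums are shares of all UMIs, and another large class of genes moved too: ribosomal protein genes took 2133 ± 36.5 counts per 10000 in radial glia and 1512 ± 46.5 in excitatory neurons. Their part in the sums was not tested, but without mitochondrial and ribosomal protein UMIs in the denominator the nuclear difference between excitatory neurons and radial glia was -0.29 instead of -0.18, and the mitochondrial one turned from 0.10 to -0.024 on the log2 scale.

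**Figure D1:**
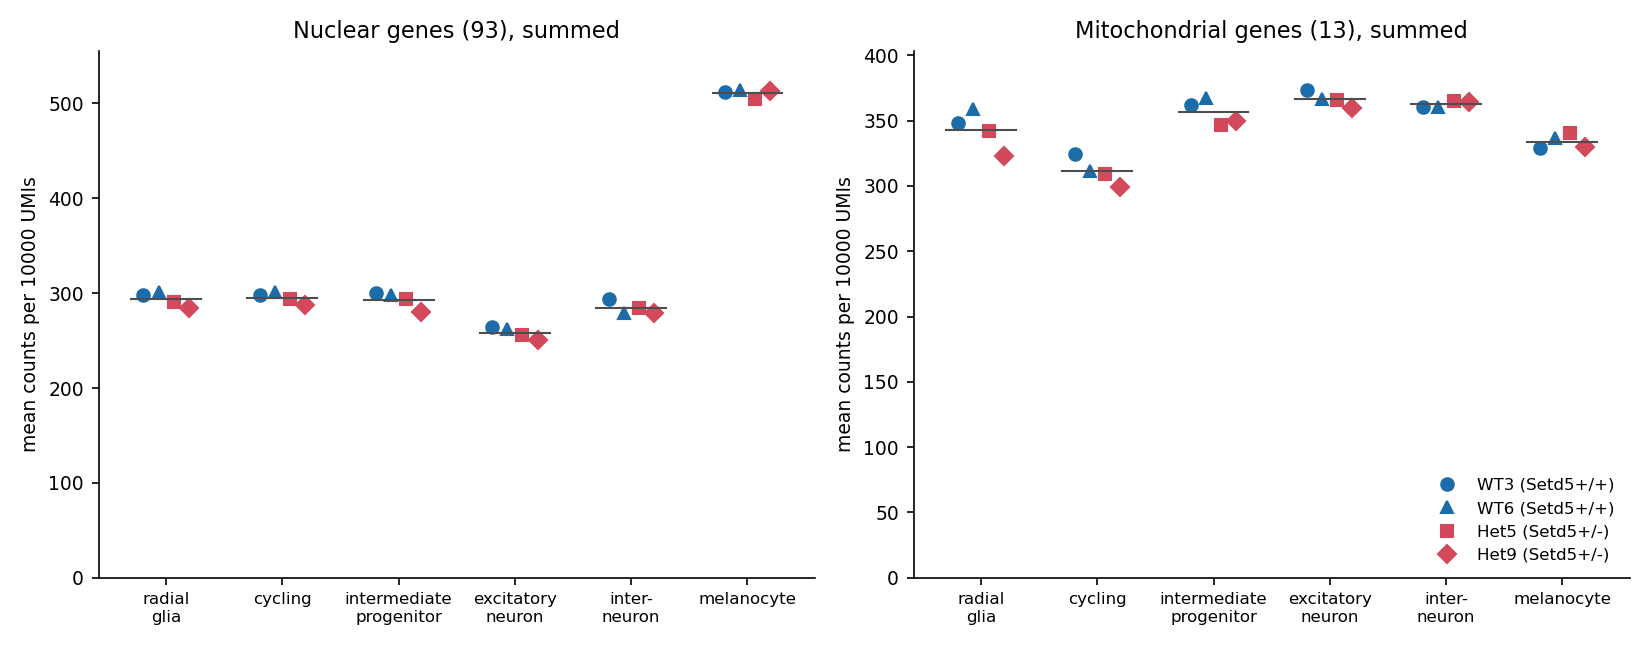
Summed counts per 10000 UMIs of the 93 nuclear (left) and the 13 mitochondrial genes (right) by gate (horizontal axis), with 1 point per library and a line at the mean of 4 libraries. Of the gates shown, nuclear sums are lowest in excitatory neurons and mitochondrial sums in cycling cells. Nuclear sums lie near 511 in melanocytes.

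The melanocyte gate stood apart from the neural gates. Its nuclear sum was 511 ± 4.65 and its mitochondrial sum 334 ± 5.47 counts per 10000, so that here the nuclear genes outweighed the mitochondrial ones. Of the 93 nuclear genes, 65 had a higher mean in melanocytes than in each of the 5 large neural gates (69.9%), against 23.7% of the 8313 genes that reach the low-value filter over these gates. Cox7b and Cox5b, subunits of complex IV, were examples chosen after their values were seen. Cox7b was at 16.8, 17.7, 16.7 and 17.8 counts per 10000 in the melanocytes of WT3, WT6, Het5 and Het9, against means of 3.12 to 3.94 in the 5 neural gates. Cox5b was at 17.0, 16.9, 16.3 and 16.7, against 4.13 to 5.14. The 4 libraries lay close together for both genes, but with 131 of the 139 melanocytes carrying a barcode that occurs in all 4 libraries they are not 4 separate measurements.

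Single genes were compared between gates with limma on log2(mean counts per 10000 + 0.1), with library as a covariate, for the 8162 genes with a mean of at least 0.1. Of the members, 87 nuclear and all 13 mitochondrial genes passed this filter, and 6 nuclear genes did not. A call is an adjusted p (Benjamini-Hochberg over all genes) under 0.05. This fit shares 1 spread over gates of unequal size, and radial glia are the smallest, so the counts and most named genes are also given from limma on the 4 within-library differences, where each comparison has its own spread. That second fit was added after the data had been seen. In simulated data the first fit called more unchanged genes than its threshold allows when excitatory neurons were compared with radial glia. Because of the added 0.1, the changes of genes with low counts come out too small.

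From radial glia to excitatory neurons, more nuclear genes fell than rose, and every complex held called genes of lower level in the neurons. Of the 87 nuclear genes, 40 were lower and 18 higher in excitatory neurons, where 63.8% of all genes were called, 32.6% lower and 31.2% higher. The within-library fit called 27 lower and 5 higher, against 55.2% of all genes, 28.8% lower and 26.4% higher. The median difference of the nuclear genes was -0.14, and that of all genes was -0.00. In the fit over all gates, 56.0% of 393 genes with transcripts of at most 772.5 bases were lower and 16.5% higher. For the 43 nuclear genes this short it was 55.8% and 11.6%. Of 7546 genes with longer transcripts, 31.3% were lower and 32.0% higher, against 37.2% and 30.2% of the 43 longer nuclear genes. The part of transcript length was not tested. With mitochondrial and ribosomal protein UMIs out of the denominator, 54 nuclear genes were lower and 6 higher. The share of all genes called was not computed for this denominator, and the median of all genes itself moved to -0.10. With the cells thinned to 2000 UMIs, 29 were lower and 6 higher, for which the share of all genes was not computed either.

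In complex I, 18 of 36 subunits fell and 8 rose (10 and 3 within libraries). Ndufa12, an accessory subunit, was at 3.38, 3.52, 3.18 and 3.61 counts per 10000 in the radial glia of WT3, WT6, Het5 and Het9, and at 1.87, 2.24, 2.05 and 1.97 in excitatory neurons. All radial glia libraries lay above all libraries of excitatory neurons, with a log2 difference of -0.73 ± 0.063 (SE, limma adjusted p = 3.92e-11, within libraries 0.000533). A pair of core subunits of the arm that takes up electrons from NADH went the other way. Ndufv1, which holds the NADH binding site, rose from 0.776, 0.939, 0.860 and 0.983 to 1.28, 1.16, 1.35 and 1.18 (log2 difference 0.44 ± 0.085, limma adjusted p = 4.96e-05, within libraries 0.0161). Ndufs1, an iron-sulfur subunit, rose by 0.45 ± 0.12 (limma adjusted p = 0.00189, within libraries 0.0199), although its level in the radial glia of WT3, 0.506, came close to the neurons at 0.525 to 0.605. Ndufaf5, an assembly factor of complex I, had a difference of 0.46 ± 0.17 (limma adjusted p = 0.0183), a call that the within-library fit did not make (adjusted p = 0.0530).

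Complex II held both directions. Sdhd, a membrane anchor of succinate dehydrogenase whose promoter is shown above, was at 1.49, 1.59, 1.37 and 1.86 in radial glia and at 0.836, 0.890, 0.883 and 0.854 in excitatory neurons. The groups did not overlap, and the log2 difference was -0.79 ± 0.091 (limma adjusted p = 1.07e-08, within libraries 0.000539). The assembly factors Sdhaf3 and Sdhaf4, which act on different subunits of the enzyme, went in opposite directions. Sdhaf3 fell by 0.65 on the log2 scale, from 0.320 to 0.587 in radial glia to 0.187 to 0.275 in the neurons (limma adjusted p = 0.000178, within libraries 0.00395). Sdhaf4, at 0.453, 0.721, 0.674 and 0.704 in radial glia, was at 1.05, 1.03, 1.14 and 0.961 in excitatory neurons (log2 difference 0.65 ± 0.11, limma adjusted p = 4.13e-06, within libraries 0.00487).

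In complex III, 4 of 8 subunits fell and 2 rose (4 and 0 within libraries). Uqcrb, a small subunit at the quinone site, was at 4.38, 4.31, 4.71 and 4.63 in radial glia and at 2.53, 2.67, 2.61 and 2.60 in excitatory neurons. Every radial glia library was far above every library of neurons (log2 difference -0.77 ± 0.056, limma adjusted p = 7.27e-13, within libraries 0.000294). In complex IV, 5 of 12 subunits fell and 2 rose (3 and 1 within libraries). Cox5a, a nuclear subunit of the enzyme that reduces oxygen, was the clearest rise, from 4.26, 4.96, 4.55 and 3.92 to 6.23, 6.58, 6.22 and 5.82 (log2 difference 0.49 ± 0.049, limma adjusted p = 7.00e-10, within libraries 0.00565).

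In ATP synthase, 9 of 15 subunits fell and 2 rose (6 and 0 within libraries). Atp5g2 had the largest fall of all called nuclear genes. It is 1 of 3 genes (Atp5g1, Atp5g2 and Atp5g3) that encode the same mature c subunit of the rotor ring. It was at 7.07, 7.34, 7.14 and 7.54 in radial glia and at 4.24, 3.86, 3.96 and 4.11 in excitatory neurons, without overlap, and the log2 difference was -0.83 ± 0.047 (limma adjusted p = 2.76e-15, within libraries 0.000192). The means of its paralogs were 4.51 ± 0.29 and 3.44 ± 0.20 for Atp5g1 and 2.88 ± 0.31 and 2.43 ± 0.091 for Atp5g3 in radial glia and excitatory neurons (SD, n = 4), and the difference between the paralogs was not tested.

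**Figure D2:**
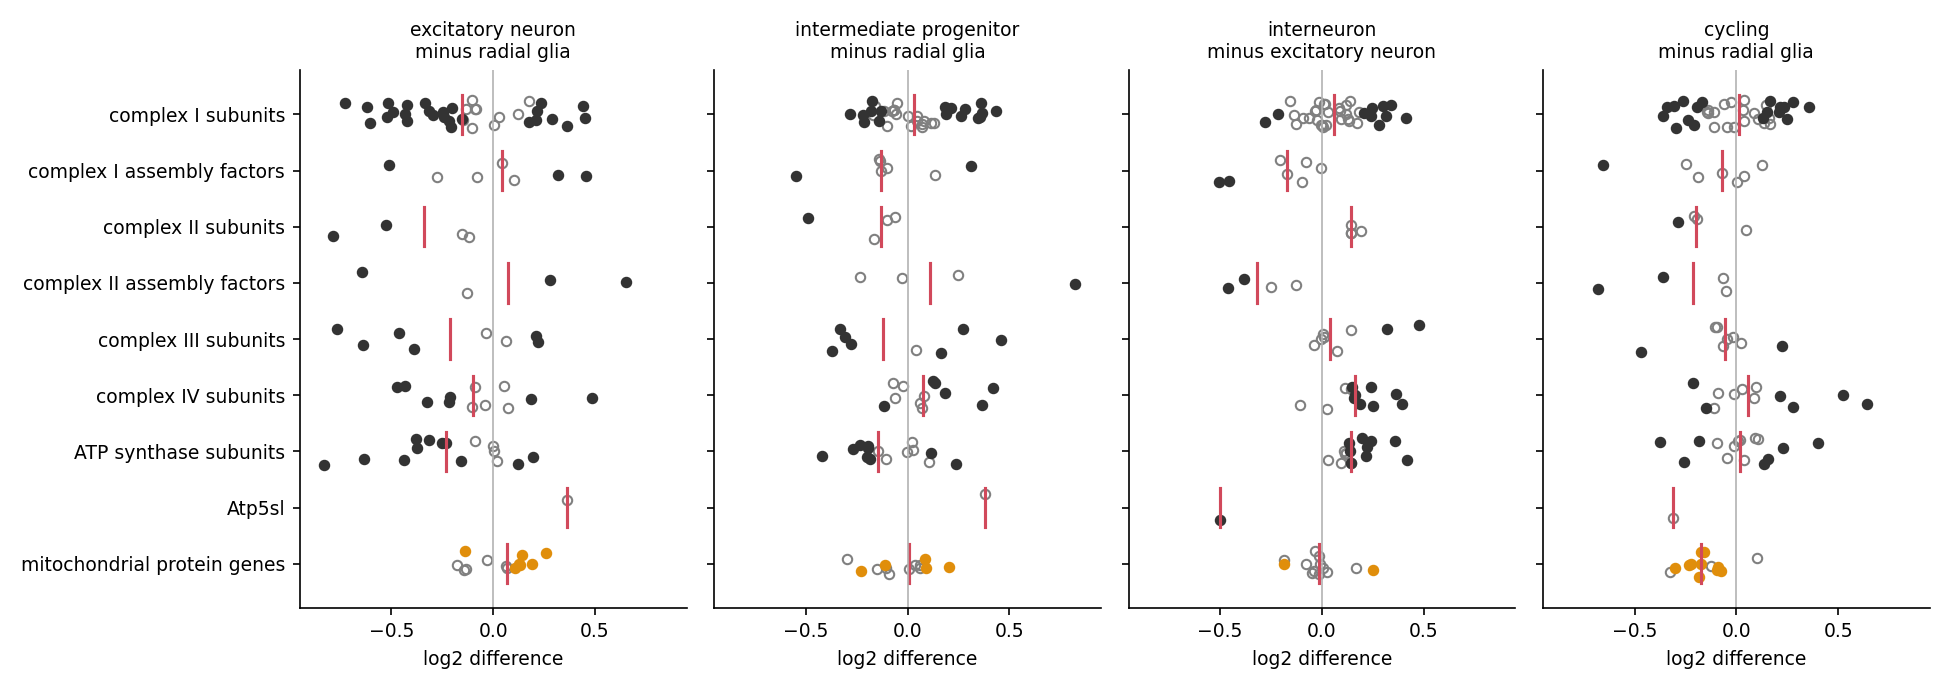
Log2 difference (horizontal axis) of each of the 100 tested genes in 4 gate comparisons, by complex (vertical axis), with called genes filled (nuclear dark, mitochondrial orange), genes not called open and the median of each row as a red line. ATP synthase subunits lie mostly below 0 from radial glia to excitatory neurons and all above 0 from excitatory neurons to interneurons.

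The mitochondrial genes did not follow the nuclear ones. In excitatory neurons 6 of 13 were called higher and 1 lower than in radial glia, where 31.2% of all genes were called higher and 32.6% lower, and the within-library fit called none, against 55.2% of all genes. Under the denominator without mitochondrial and ribosomal protein UMIs, 1 was higher and 4 were lower, for which the share of all genes was not computed. mt-Co1, the catalytic core of complex IV, was at 36.7, 38.6, 36.1 and 36.1 in radial glia and at 44.7, 44.5, 43.9 and 43.7 in excitatory neurons. These groups did not overlap (log2 difference 0.26 ± 0.031, limma adjusted p = 1.52e-08, within libraries 0.0627). mt-Nd1, a subunit of complex I, went the other way, from 44.4, 44.7, 42.5 and 39.0 to 39.5, 39.2, 38.8 and 37.4, with overlap between libraries (log2 difference -0.14 ± 0.031, limma adjusted p = 0.000266, within libraries 0.277).

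Intermediate progenitors differed from radial glia in single genes rather than in the sum. Of 87 nuclear genes, 22 were higher and 21 lower, which is near the background of 51.1% of all genes, 24.3% higher and 26.8% lower. The within-library fit called 8 higher and 6 lower, against 38.3% of all genes, 17.0% higher and 21.3% lower. With cells thinned to 2000 UMIs, 5 were higher and 14 lower, for which the share of all genes was not computed. In complex I, 10 of 36 subunits were higher and 7 lower (4 and 0 within libraries). Ndufaf4, an assembly factor of complex I, was lower in intermediate progenitors, at 0.519, 0.499, 0.617 and 0.489 against 0.915, 0.828, 0.659 and 0.908 in radial glia, without overlap (log2 difference -0.55 ± 0.12, limma adjusted p = 0.000232, within libraries 0.0181).

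Complexes II and III again held changes in both directions between these progenitors. Sdhaf4 was at 1.14, 1.27, 1.24 and 1.11 in intermediate progenitors, above the 0.453 to 0.721 of radial glia in every library (log2 difference 0.82 ± 0.11, limma adjusted p = 1.44e-07, within libraries 0.00219). Sdhd fell by 0.49 on the log2 scale (SE 0.091, limma adjusted p = 4.56e-05, within libraries 0.0168). Uqcrfs1, the Rieske iron-sulfur protein that takes electrons from quinol, was at 2.75, 2.76, 2.65 and 2.70 against 1.86, 2.07, 1.99 and 1.87 in radial glia (log2 difference 0.46 ± 0.062, limma adjusted p = 4.14e-07, within libraries 0.0118). Uqcrb, at 3.34 to 3.54, stood between radial glia and excitatory neurons (log2 difference from radial glia -0.37 ± 0.056, limma adjusted p = 2.03e-06, within libraries 0.0238). Uqcr10, another small subunit, was lower by 0.33 (SE 0.063, limma adjusted p = 5.90e-05, within libraries 0.0358), but this turned to 0.075 when cells were thinned to 2000 UMIs.

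In complex IV, 5 of 12 subunits were higher in intermediate progenitors and 1 lower (2 and 0 within libraries). Cox5a was higher by 0.42 (SE 0.049, limma adjusted p = 2.35e-08, within libraries 0.0178). Cox7a2l, a relative of the complex IV subunit Cox7a2 that joins complexes III and IV into a supercomplex, was at 8.67, 8.30, 7.68 and 8.58 against 6.09, 6.43, 6.91 and 6.25 in radial glia, without overlap (log2 difference 0.37 ± 0.055, limma adjusted p = 2.04e-06, within libraries 0.0373). ATP synthase held 7 lower and 2 higher subunits of 15 (1 and 0 within libraries). Atp5g1 was at 3.52, 3.32, 3.26 and 3.23 against 4.91, 4.27, 4.32 and 4.51, again without overlap (log2 difference -0.42 ± 0.060, limma adjusted p = 9.21e-07, within libraries 0.0139). Of the 13 mitochondrial genes, 3 were higher and 2 lower, a smaller share than the 51.1% of all genes, and the within-library fit called none, against 38.3%.

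Between the neuron types, more nuclear genes were higher in interneurons than lower, most of them subunits of complexes I and IV and ATP synthase. Of 87 nuclear genes, 27 were higher in interneurons and 7 lower, where 31.0% of all genes were called, 14.7% higher and 16.3% lower. The within-library fit called 11 higher and 5 lower, against 30.7% of all genes, 14.2% higher and 16.4% lower. With cells thinned to 2000 UMIs, 17 were higher and 1 lower, for which the share of all genes was not computed. Called subunits were 8 higher and 2 lower of 36 in complex I, 2 higher of 8 in complex III, 8 higher of 12 in complex IV and 9 higher of 15 in ATP synthase, where the sign was positive for all 15 subunits. Within libraries the calls were 5 higher in complex I and 2 higher each in complex III, complex IV and ATP synthase. The 4 subunits of complex II had positive differences, none called. The 7 assembly factors of complex I (2 called) and the 4 of complex II (2 called) all had negative differences, and no test compared them with the subunits.

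Ndufs6, a subunit of complex I, was at 2.29, 2.15, 2.50 and 2.23 in interneurons and at 1.85, 1.60, 1.68 and 1.65 in excitatory neurons (log2 difference 0.42 ± 0.076, limma adjusted p = 6.70e-05, within libraries 0.00584). Uqcrb was at 3.72, 3.54, 4.08 and 3.36 in interneurons, above the 2.53 to 2.67 of excitatory neurons (log2 difference 0.48 ± 0.056, limma adjusted p = 4.54e-08, within libraries 0.00310). For both genes every interneuron library exceeded every library of excitatory neurons. Cox7c, a small subunit of complex IV, was at 9.60, 9.48, 8.91 and 9.01 against 7.55, 7.12, 6.68 and 6.71 (log2 difference 0.40 ± 0.044, limma adjusted p = 2.06e-08, within libraries 0.00563). Cox6c, another, was at 6.93 to 7.11 against 5.39, 5.65, 5.23 and 5.51 (log2 difference 0.36 ± 0.046, limma adjusted p = 2.20e-07, within libraries 0.00897). Neither gene overlapped between the neuron types. Atp5g2, which had the largest fall among the called nuclear members in excitatory neurons against radial glia, was at 5.72, 5.15, 5.32 and 5.57 in interneurons (log2 difference 0.42 ± 0.047, limma adjusted p = 2.45e-08, within libraries 0.00392), still below radial glia in every library.

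Of the 7 nuclear genes that were lower in interneurons, 5 are factors that build complexes I and II, and the other two, Ndufv1 and Ndufc2, are subunits of complex I. Sdhaf4 was at 0.644, 0.776, 0.730 and 0.780 against 0.961 to 1.14 in excitatory neurons (log2 difference -0.46 ± 0.11, limma adjusted p = 0.000944, within libraries 0.00818), and Sdhaf2, which helps attach the flavin to Sdha, fell by 0.38 (SE 0.12, limma adjusted p = 0.0143, within libraries 0.0152). Ndufaf6 fell by 0.51 (SE 0.15, limma adjusted p = 0.00929, within libraries 0.00739), Ndufaf5 by 0.46 (SE 0.17, limma adjusted p = 0.0368, within libraries 0.00490), and Atp5sl, a complex I assembly factor in spite of its ATP synthase name, by 0.50 (SE 0.17, limma adjusted p = 0.0280, within libraries 0.00603). These are low genes, with Ndufaf6 at 0.0682 to 0.123 counts per 10000 in interneurons and 0.163 to 0.194 in excitatory neurons. All 5 factors were lower in each of the 4 libraries. The count of members called lower was 8 over nuclear and mitochondrial genes, and 3 without Het5.

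Within the mitochondrial genome, 1 of 13 transcripts was called higher in interneurons than in excitatory neurons and 1 lower, a smaller share than the 31.0% of all genes. With cells thinned to 2000 UMIs, 1 was higher and 3 lower, for which the share of all genes was not computed. The sum, which has no test, differed by -0.015 on the log2 scale and by -0.083 when thinned. mt-Nd1 was at 46.4, 46.4, 46.7 and 44.6 in interneurons and at 39.5, 39.2, 38.8 and 37.4 in excitatory neurons, without overlap (log2 difference 0.25 ± 0.031, limma adjusted p = 1.19e-07, within libraries 0.0452). mt-Co1 was lower in interneurons, at 38.0, 40.2, 38.4 and 38.7 against 44.7, 44.5, 43.9 and 43.7 (log2 difference -0.19 ± 0.031, limma adjusted p = 1.37e-05, within libraries 0.131). The ratio of mt-Nd1 to mt-Co1 counts, looked at after these values were seen, was 1.22, 1.16, 1.21 and 1.15 in the interneurons of WT3, WT6, Het5 and Het9 and 0.883, 0.881, 0.883 and 0.855 in excitatory neurons. It was 1.16 ± 0.054 in radial glia, 1.22 ± 0.045 in cycling cells and 0.928 ± 0.027 in intermediate progenitors (SD, n = 4), so that the excitatory lineage beyond radial glia lay below 1 in every library and the other large gates above 1. In melanocytes it was 0.504 ± 0.0096 and in immune cells 0.469 ± 0.075, with the shared barcodes noted above. Of the small neural gates, Cajal-Retzius cells were at 0.846 ± 0.12 and striatal neurons at 1.12 ± 0.072.

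**Figure D3:**
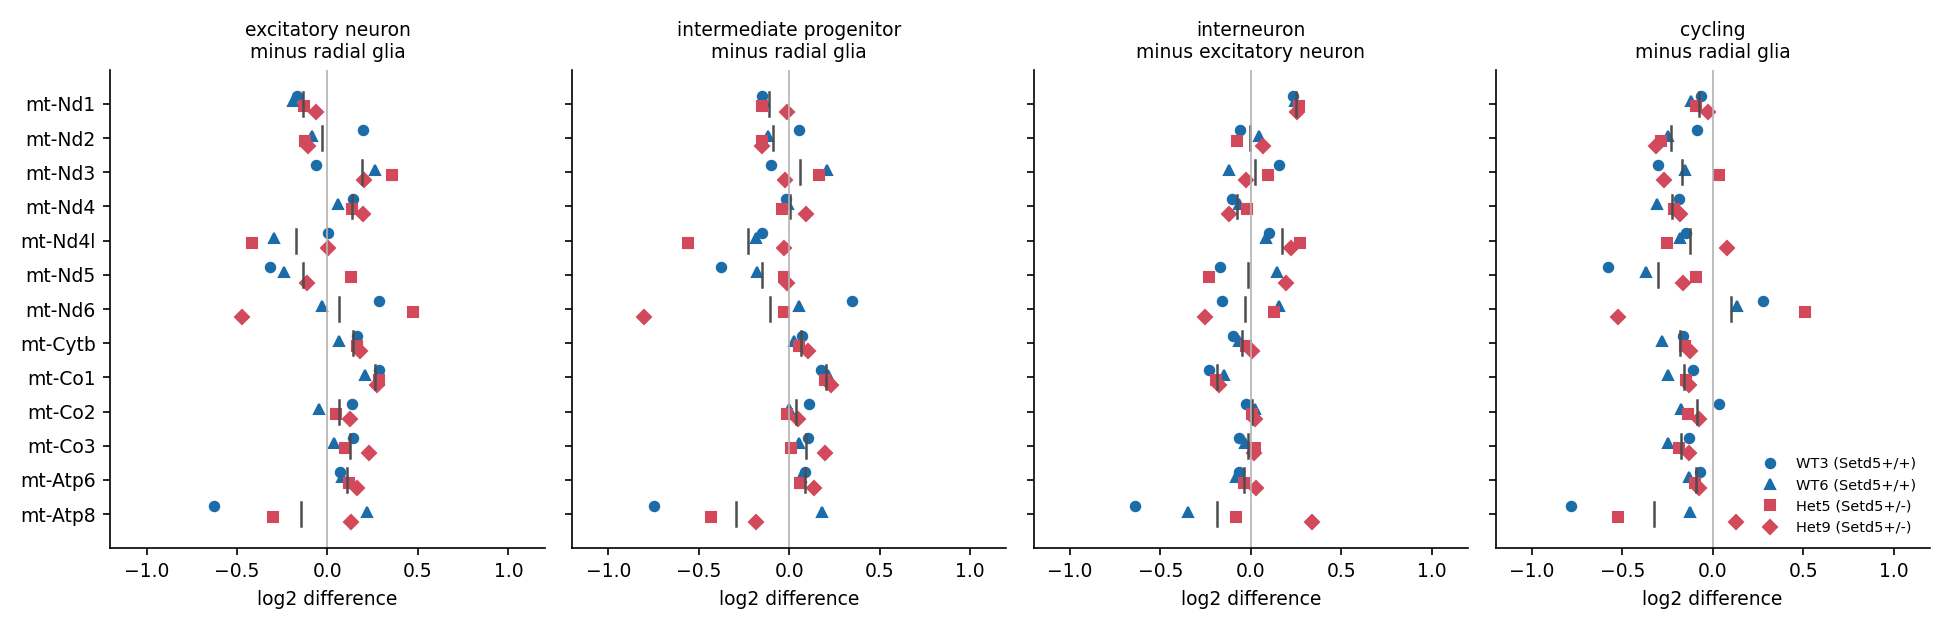
Within-library log2 difference (horizontal axis) of each of the 13 mitochondrial genes (vertical axis) in 4 gate comparisons, with 1 point per library and a line at the mean. From excitatory neurons to interneurons all 4 points of mt-Nd1 lie above 0 and all 4 of mt-Co1 below it, and for cycling cells against radial glia most points lie below 0.

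In cycling cells against radial glia, the fit over all gates called most mitochondrial transcripts lower and nuclear genes both ways. Of 13 mitochondrial genes, 10 were called lower in cycling cells and none higher, where 28.4% of all genes were called lower, and the 3 not called were mt-Atp8, mt-Nd4l and mt-Nd6. The within-library fit called none of the 13, against 39.9% of all genes, 22.6% lower. mt-Nd4, a subunit of complex I, was at 18.3 to 20.1 against 20.7 to 23.3 in radial glia, without overlap (log2 difference -0.22 ± 0.035, limma adjusted p = 5.29e-06). mt-Cytb, the cytochrome b of complex III, was at 36.8, 35.5, 35.6 and 35.5 against 41.2, 43.1, 39.6 and 38.8, also without overlap (log2 difference -0.18 ± 0.031, limma adjusted p = 1.73e-05).

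Of the nuclear genes, 18 were higher and 19 lower in cycling cells, near the background of 51.8% of all genes, 23.4% higher and 28.4% lower. The within-library fit called 4 higher and 8 lower, against 39.9% of all genes, 17.3% higher and 22.6% lower. The split depended on the scale. It was 25 higher and 13 lower after the median of all genes was subtracted. Without mitochondrial and ribosomal protein UMIs in the denominator it was 8 higher and 34 lower. For neither scale was the share of all genes computed. Cox7a2, the widely used isoform of its complex IV subunit, was at 8.58, 7.81, 7.83 and 7.63 in cycling cells and at 5.10, 5.80, 4.83 and 4.61 in radial glia, without overlap (log2 difference 0.64 ± 0.055, limma adjusted p = 7.87e-11, within libraries 0.00395). Cox5a rose by 0.52 (SE 0.049, limma adjusted p = 3.63e-10, within libraries 0.00723), and Cox7c by 0.28 (SE 0.044, limma adjusted p = 4.86e-06), a call lost within libraries (adjusted p = 0.0757).

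Atp5f1, the b subunit of the ATP synthase stalk, was at 5.94, 6.43, 6.18 and 6.26 in cycling cells against 4.22, 5.07, 4.51 and 4.96 in radial glia (log2 difference 0.40 ± 0.055, limma adjusted p = 5.13e-07, within libraries 0.0202). Atp5e, the epsilon subunit of its catalytic head, fell from 6.83, 7.99, 6.62 and 7.03 to 5.71, 5.79, 5.42 and 4.93 (log2 difference -0.37 ± 0.058, limma adjusted p = 3.95e-06, within libraries 0.0248). Neither subunit overlapped between the gates. Uqcr11, a small subunit of complex III, was at 3.14, 3.26, 3.03 and 3.09 against 4.35, 4.41, 4.32 and 4.40 (log2 difference -0.47 ± 0.054, limma adjusted p = 2.33e-08, within libraries 0.00806). In complex I, 9 of 36 subunits were higher and 9 lower (1 and 3 within libraries). Ndufs4 rose by 0.36 (SE 0.073, limma adjusted p = 0.000134, within libraries 0.0470), Ndufa13 fell by 0.36 (SE 0.061, limma adjusted p = 1.24e-05, within libraries 0.0285), and the assembly factor Ndufaf1 fell by 0.65 (SE 0.13, limma adjusted p = 0.000145, within libraries 0.00617). Sdhaf3 of complex II fell by 0.68 (SE 0.14, limma adjusted p = 0.000154, within libraries 0.00396).

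**Figure D4:**
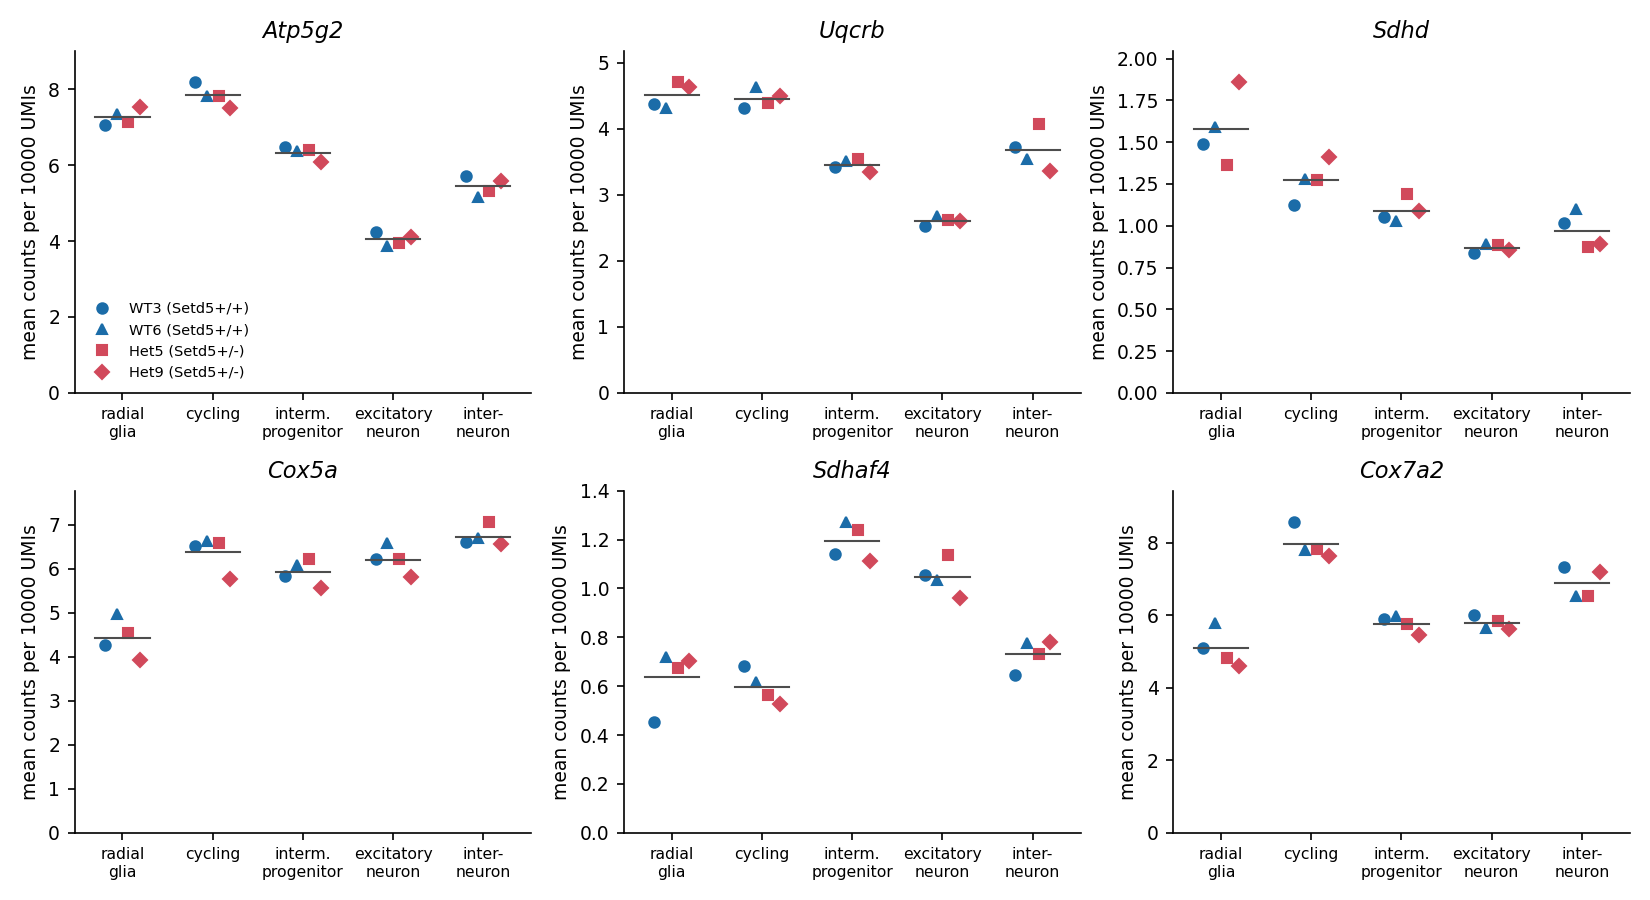
Mean counts per 10000 UMIs (vertical axis) of 6 genes by gate (horizontal axis), with 1 point per library and a line at the mean of 4 libraries. Of the gates shown, Atp5g2, Uqcrb and Sdhd are lowest in excitatory neurons and Cox5a is lowest in radial glia. Among the same gates Sdhaf4 is highest in intermediate progenitors and excitatory neurons, and Cox7a2 is highest in cycling cells.

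Isoforms known from other tissues were rare. Cox4i1, the common isoform of its complex IV subunit, had a UMI in 98.4% of cells, and its alternative Cox4i2 in 42 cells with 46 UMIs. Cox4i2 was found in 9 of 346 radial glia (2.60%), 11 intermediate progenitors (0.963%), 16 cycling cells (1.33%) and 1 excitatory neuron (0.0507%), and in 0 of 1005 interneurons, which allows a share of cells with a UMI of up to 0.299% (3 counts, counting error only) and does not limit the share that expresses the gene. Thinned to 2000 UMIs per cell, the shares were 0.580% in radial glia, 0.613% in intermediate progenitors and 0.251% in cycling cells, so radial glia did not stand above intermediate progenitors. Cox6b2, known from testis, had a UMI in 33 radial glia (9.54%), 61 cycling cells (5.08%), 42 intermediate progenitors (3.68%), 15 interneurons (1.49%) and 21 excitatory neurons (1.06%), and in 6 of 28 Cajal-Retzius cells. Thinned to 2000 UMIs per cell, with 1, 5, 0, 66 and 20 shallower cells of these gates left out, the shares were 4.06%, 1.25%, 1.05%, 0.639% and 0.358%, so radial glia remained highest of the 5 large gates. Cox7a1, the isoform of heart and skeletal muscle, was found in 120 cells, among them 12 melanocytes (8.63%) and 1.39% to 2.71% of the 5 large neural gates. Ndufa4l2, a relative of Ndufa4, was found in 37 cells, among them 4 of 11 vascular cells and 11 of 139 melanocytes (7.91%), each gate with 15 of its 52 UMIs, and 4 of the vascular cells carry a barcode found in all 4 libraries. Cox6a2, the muscle isoform, was found in 3 cells, all in the melanocyte gate. In that gate 131 of 139 cells carry a barcode found in all 4 libraries. Its cells with any of these isoforms cannot be taken as separate cells.

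Between genotypes no oxidative phosphorylation gene was called. Over all cells, 0 of 100 tested members passed, against 7 of 8137 genes (0.0860%), and 4 members had an unadjusted limma p under 0.05, as did 4.34% of all genes. By gate the members called were 0 in excitatory neurons (0.116% of all genes), intermediate progenitors (0.143%), radial glia (0.146%), cycling cells (0.0770%) and interneurons (0.0918%), with 5, 5, 5, 6 and 0 members at an unadjusted limma p under 0.05, against 4.35% (cycling cells) to 5.59% (radial glia) of all genes. The difference of genotypes between excitatory neurons and radial glia was called for 0 members (0.0121% of all genes) with 0 at an unadjusted p under 0.05. The call stayed at 0 under every alternative but 1. Without WT6, where WT3 is the only wild-type library and is assumed to vary like the others, Sdhc, a membrane anchor of complex II, was called higher in the Setd5+/- excitatory neurons (log2 difference 0.45 ± 0.13, limma adjusted p = 0.0454). Its levels there were 0.640 in WT3, 0.829 in WT6, 0.860 in Het5 and 0.964 in Het9, and all 4 libraries together gave a limma adjusted p of 0.994.

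Most differences between genotypes were small and pointed down. Of the 100 members, 81 had a lower mean in Setd5+/- libraries, with a median log2 difference of -0.05, while the median of all genes was -0.00. In 48 members the libraries of the genotypes did not overlap, 43 of them lower in Setd5+/-, against 32.0% of all genes, where 1336 were lower and 1264 higher. The nuclear sum was 288 and 286 counts per 10000 in the wild types and 283 (Het5) and 273 (Het9) in the heterozygotes, a difference of -3.19%. The mitochondrial sum was 358 and 355 against 348 and 346, a difference of -2.68%. In both sums the genotypes did not overlap, but the gap between Het5 and WT6 in the nuclear sum was smaller than that between Het5 and Het9, and the log2 difference went from -0.05 to -0.02 without Het9. Members share their denominator, cells and library, so their number is no replication.

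The nuclear sum was lower in Setd5+/- in the 5 large gates, with differences of -3.69% in excitatory neurons, -4.22% in intermediate progenitors, -3.98% in radial glia, -3.13% in cycling cells and -1.79% in interneurons, which share the same 4 fetuses. In interneurons the genotypes overlapped, and the mitochondrial sum was 1.14% higher there, a direction that turned (-0.026 on the log2 scale) with summed UMIs. In the other 4 large gates the mitochondrial sum was lower in Setd5+/-, with differences of -5.92% in radial glia, -4.55% in intermediate progenitors, -4.18% in cycling cells and -2.02% in excitatory neurons. The members that ranked first in this comparison over all cells were mt-Nd2, Cox7c, mt-Nd3, Ndufa1 and Ndufa5. The level of mt-Nd2, a subunit of complex I, was 10.99 and 10.8 in the wild types and 9.74 and 9.98 in the heterozygotes (log2 difference -0.14 ± 0.048, limma adjusted p = 0.994). Cox7c was at 8.99 and 8.90 against 8.25 and 7.96 (log2 difference -0.14 ± 0.049, limma adjusted p = 0.994). mt-Nd3 was at 3.28 and 3.19 against 2.81 and 2.99, Ndufa1 at 1.63 and 1.52 against 1.37 and 1.44, and Ndufa5 at 2.15 and 1.96 against 1.90 and 1.75. For all 5 the genotypes did not overlap, which their choice by low p largely fixes.

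**Figure D5:**
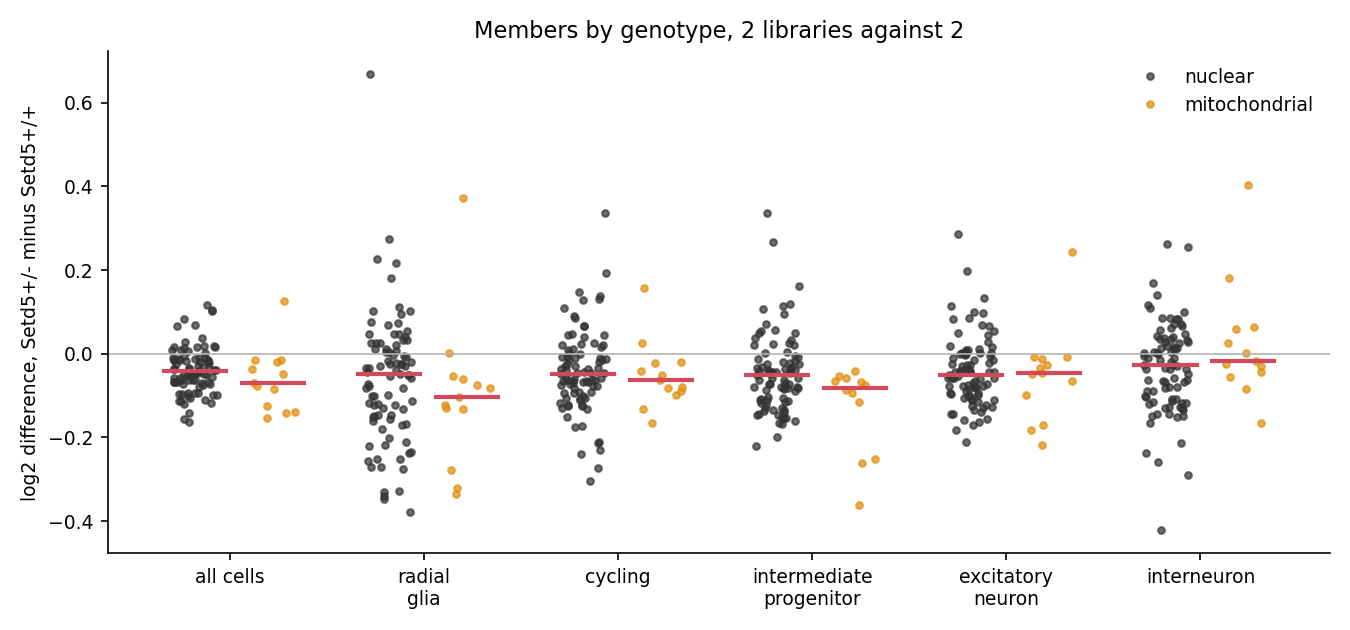
Log2 difference between Setd5+/- and Setd5+/+ libraries (vertical axis) of the tested nuclear (dark) and mitochondrial (orange) genes, 1 point per gene, over all cells and in 5 gates (horizontal axis), with a red line at the median. The medians over all cells are -0.04 for nuclear and -0.07 for mitochondrial genes, and no gene was called.

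Neighbouring pathways gave a background to these values, from fixed lists of genes. Of 15 glycolysis genes, 12 were lower and 3 higher in excitatory neurons than in radial glia, in the within-library fit too, though Aldoc was 1 of the markers of the radial glia gate and its direction is given by the gate. Ldha, which makes lactate, went from a mean of 7.54 to 1.40 counts per 10000 (log2 difference -2.35 ± 0.10, limma adjusted p = 7.56e-18, within libraries 1.58e-06), and Ldhb, the isoform that favours pyruvate, from 3.69 to 5.91 (log2 difference 0.68 ± 0.065, limma adjusted p = 3.23e-10, within libraries 0.00179). Of 20 genes of the citric acid cycle, 5 were higher and 7 lower, with Suclg2, a subunit of succinyl-CoA ligase, lower at -2.12 ± 0.15 (limma adjusted p = 2.43e-13, within libraries 7.14e-06). Of 28 respiratory chain genes outside the symbol rule, 7 were higher and 6 lower. Atpif1, the inhibitor of ATP synthase running in reverse, rose from 5.79 to 10.0 (log2 difference 0.78 ± 0.044, limma adjusted p = 1.95e-15, within libraries 0.000512), and Uqcc2, an assembly factor of complex III, fell from 2.58 to 1.44 (log2 difference -0.80 ± 0.080, limma adjusted p = 5.77e-10, within libraries 0.000301). Of 12 genes of mitochondrial gene expression, 1 was higher and 4 lower, among them Tfam, the packaging and transcription factor of the mitochondrial genome (log2 difference -0.71 ± 0.12, limma adjusted p = 6.54e-06, within libraries 0.000744).

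The citric acid cycle list had 2 higher and 5 lower within libraries, the chain genes outside the rule 4 and 4, and mitochondrial gene expression 1 and 4. Of all genes, 63.8% were called in this comparison and 55.2% within libraries, so the share of called genes in the citric acid cycle list was near that of all genes in the first fit and those of the chain and gene expression lists were below it.

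In intermediate progenitors against radial glia these lists held 1 higher and 9 lower of the glycolysis genes, 8 and 5 of the citric acid cycle, 7 and 2 of the chain genes outside the rule and 1 and 3 of the genes of mitochondrial gene expression (within libraries 0 and 8, 3 and 4, 4 and 1, and 1 and 1), where 51.1% of all genes were called and 38.3% within libraries. In interneurons against excitatory neurons the counts were 2 higher and 7 lower, 2 and 1, 4 and 0, and 3 and 2 (within libraries 2 and 5, 1 and 1, 2 and 1, and 3 and 1), against 31.0% of all genes and 30.7% within libraries. Lrpprc, which stabilizes mitochondrial mRNA, was higher by 0.86 (SE 0.13, limma adjusted p = 5.18e-06, within libraries 0.000795). Cycling cells had 0 higher and 13 lower of the glycolysis genes against radial glia, 3 and 6 of the citric acid cycle, 5 and 6 of the chain genes outside the rule and 1 and 0 of mitochondrial gene expression (within libraries 0 and 12, 2 and 4, 3 and 5, and 1 and 0), where 51.8% of all genes were called and 39.9% within libraries. Cycs, the somatic cytochrome c that carries electrons from complex III to complex IV, was higher in cycling cells by 0.78 (SE 0.070, limma adjusted p = 1.84e-10, within libraries 0.00149). Between genotypes none of these genes was called over all cells.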

How the data were processed

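Members, lists and tests were chosen with earlier results of these data known. The authors deposited 1 table for both genotypes, in which UMI counts were scaled to 10000 per cell and put on a natural log scale, ln(1 + counts per 10000). The submitters' processing notes name mm10, Cell Ranger 2.1 and Seurat 2.3.0. The annotation and strand setting are not given in the sources. No cell of the table reaches 6% mitochondrial UMIs. Libraries were made with the 10x 3′ v2 kit, so a level counts molecules by their 3′ end, not per length. UMIs were recovered as whole multiples of the lowest value in a cell (100% of 14848520 values, tolerance 0.001). No count model was fitted to the recovered UMIs.

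Means of counts per 10000 over the cells of a gate and library were tested with limma 3.58.1 (trended variance) in R 4.3.3, for gates with at least 20 cells in every library. Gates asked for 4 markers of radial glia or cycling cells, 3 of excitatory neurons or interneurons and 2 of melanocytes. Sums have no test. Doublets were not called, and 135 cells that passed several gates were left out of the gates. The libraries held 8205330 to 11742956 UMIs. Each library is 1 fetus. Between genotypes, p-values measure the spread of 2 libraries per genotype, and in the within-library fit the spread of 4 differences. In the fit over all gates they measure a spread pooled over the profiles of 5 gates in 4 libraries, after gate and library terms. Named genes were all mitochondrial genes as a group, the 5 nuclear genes with the largest rise and fall per gate comparison among those called with the same sign in every library, the 5 lowest p-values between genotypes, the listed isoforms and up to 2 examples a list and direction. Others, such as Sdhc, Cox7b, Cox5b and the Atp5g paralogs, were named after their values were seen. Some genes that the rule names are not reported here. Promoter windows are those of RefSeq on GRCm38.p6, and gene spans those of GENCODE M21 on GRCm38. Scripts were tested on simulated data. There the fit over all gates called more unchanged genes than its threshold allows for excitatory neurons against radial glia. The other gate comparisons were not evaluated in the simulation. Tables and figures were made with pandas 2.3.3, numpy 2.4.6, matplotlib 3.10.9 and scipy 1.17.1 under Python 3.11.15. Alternatives were pseudocounts of 0.01 and 1, no low-value filter, each library left out, summed UMIs, other denominators, median subtraction, cells of shared barcodes or at 5% mitochondrial UMIs left out, thinning to 2000 UMIs, 1 more marker per gate and only the compared gates in the fit.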

Additional observations from a re-analysis of the deposited data

Results flagged for a closer look

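In 2 cases the genotypes moved in opposite directions in every library under the same comparison of gates. The difference was not tested in either. The share of all genes with such a pattern was not computed, so the 2 cases cannot be set against it. mt-Nd6, the subunit of complex I on the other strand of the mitochondrial genome, was higher in intermediate progenitors than in radial glia in WT3 (log2 difference 0.35) and WT6 (0.06) and lower in Het5 (-0.03) and Het9 (-0.80), so that the genotypes differed by -0.62. Its levels in radial glia were 0.0639, 0.0942, 0.0532 and 0.248 counts per 10000 in WT3, WT6, Het5 and Het9, which is few molecules, and Het9 alone was high.

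mt-Co3, a core subunit of complex IV, was lower in interneurons than in excitatory neurons in WT3 (-0.07) and WT6 (-0.03) and higher in Het5 (0.02) and Het9 (0.02), a difference of 0.066 between genotypes.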

How the results depend on the processing

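The 4 gate comparisons called 65, 48, 36 and 47 of 100 members, in the order excitatory neurons against radial glia, intermediate progenitors against radial glia, interneurons against excitatory neurons and cycling cells against radial glia. In the same order, the within-library fit, added after the data were seen, called 32 (5 higher, 27 lower), 14 (8 and 6), 17 (12 and 5) and 12 (4 and 8), all of them among the first counts. Thinning to 2000 UMIs gave 40 (10 higher), 20 (6 higher, 14 lower), 22 (18 and 4) and 25 (4 higher). Without mitochondrial and ribosomal protein UMIs in the denominator, 7 members were higher in excitatory neurons, 8 were higher and 44 lower in cycling cells, and mt-Atp6 in excitatory neurons turned to -0.015. The median of all genes then moved to -0.10 and -0.12 in these comparisons. With the median subtracted, 19 were lower in cycling cells. Uqcr10 turned to 0.075 in thinned intermediate progenitors. Leaving out each library gave 57 to 61, 35 to 41, 24 to 36 and 35 to 43 called members, 3 to 6 lower in interneurons and 0 to 1 between genotypes in excitatory neurons. For the gate comparisons, the share of all genes called was computed only in the fit over all gates and in the within-library fit. The cause of these shifts was not tested.

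The nuclear sum of excitatory neurons against radial glia went to -0.29 in that denominator and to -0.17 without cells at 5% mitochondrial UMIs. That of intermediate progenitors was -0.037 when thinned. That of cycling cells was -0.079 in that denominator, -0.029 when thinned and 0.0014 with 1 more marker. The mitochondrial sum went to -0.024 in excitatory neurons and -0.23 in cycling cells in that denominator, and to -0.083 in thinned interneurons. The other 382 counts and sums stayed within 1.5 times the reported count or within 1 SD.

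No paired analysis was possible because the cell names carry no replicate number of the labels, so the genotypes were compared unpaired, while gates were compared within libraries. Striatal neurons were not tested between genotypes, since Het5 held 9 of them. Radial glia, with 50 to 144 cells a library, limit the comparisons they enter, and levels near 0.1 counts per 10000 rest on few UMIs.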

Other observations

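The following groupings were made after the values had been seen and carry no test. The 7 core subunits of complex I, which hold its electron path and are shared with bacteria, had a median log2 difference of 0.26 from radial glia to intermediate progenitors, with 4 called higher and none lower by limma. The 29 other subunits had a median of 0.02, with 6 higher and 7 lower, close to the 24.3% and 26.8% of all genes. From radial glia to excitatory neurons the medians were 0.12, with 3 higher and 3 lower, and -0.15, with 5 higher and 15 lower, where 31.2% of all genes were higher and 32.6% lower.

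Nuclear members have short transcripts, with a median of 772.5 bases in GENCODE M21 over the 86 of 87 matched genes. From radial glia to excitatory neurons the 43 shorter ones had a median log2 difference of -0.21 (5 higher, 24 lower) and the 43 longer ones -0.08 (13 higher, 16 lower). The same cut over all genes tested gave -0.26 for 393 shorter transcripts, of which 16.5% were higher and 56.0% lower, against 11.6% and 55.8% of the shorter members, and 0.01 for 7546 longer ones, with 32.0% higher and 31.3% lower. Spearman's rho between transcript length and the difference was 0.31 over nuclear members and 0.17 over all genes, across genes that share the same libraries. For intermediate progenitors against radial glia it was 0.20 and 0.056, for interneurons against excitatory neurons -0.24 and -0.077, and for cycling cells against radial glia -0.019 and 0.077.

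Over all cells, 13 of 15 glycolysis genes had a higher mean in Setd5+/- libraries, with a median log2 difference of 0.11, against -0.04 for the nuclear members, and 3970 of all 8137 genes had a higher mean. None was called by limma, and 2 had an unadjusted p under 0.05, as did 4.34% of all genes.

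The striatal neuron gate, not tested, had mitochondrial sums of 338, 394, 451 and 365 counts per 10000 in WT3, WT6, Het5 and Het9 and the Cajal-Retzius gate a mean of 410 ± 53.0 (SD, n = 4), with 16.3% and 28.6% of their cells at 5% mitochondrial UMIs or more, close to the limit of the table. The erythroid gate had nuclear sums of 90.4 to 143 and mitochondrial sums of 167 to 284 counts per 10000. Cells under 1% mitochondrial UMIs made up 0.960% of all cells and 13.7% of the melanocyte gate.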
